A study of Mus musculus with 24 samples.

Results

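The transcripts of 7 matrix metalloproteinases (Mmp2, Mmp9, Mmp8, Mmp13, Mmp3, Mmp10 and Mmp14) and of 3 tissue inhibitors of metalloproteinases (Timp1, Timp2 and Timp3) were followed through every library of a mouse tumor study. The members were taken by gene name from a fixed list, and all 10 were present among the 35976 genes quantified. mRNA sequencing had been done on CT26 cells, a colon cancer line that grows as tumors in syngeneic BALB/c mice. There were 7 whole tumors of a Sun1 knockout line and 8 of a control line here called control line 1. There were 2 libraries of tumor cells purified from such tumors for each of the knockout line, a control line 2 and control line 1. There was 1 library of each of these 3 lines in culture. Tumors were collected at day 14 after subcutaneous injection, and both control lines carry the genotype label wildtype. The knockout is represented by 1 line, so Sun1 loss and other properties of that line cannot be told apart, and the age and sex of the mice are not given in the sources used here.

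Matrix metalloproteinases are zinc-dependent proteases that cut components of the extracellular matrix as well as cytokines, receptors and each other. Most are secreted as inactive precursors, and TIMPs bind to their active sites and block them. In tumors they are made by cancer cells, fibroblasts, macrophages and neutrophils. By their main substrates Mmp2 and Mmp9 are gelatinases, Mmp8 and Mmp13 collagenases, and Mmp3 and Mmp10 stromelysins, while Mmp14 is anchored in the cell membrane and, together with Timp2, activates the Mmp2 precursor.

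Of the 10 members, 4 lie in a cluster of 10 metalloproteinase genes that spans 427 kb of mouse chromosome 9 in GRCm38.p6. From the start of the cluster these are Mmp13 (chr9:7272514-7283333), Mmp3 (chr9:7445822-7455975), Mmp10 (chr9:7502342-7510242) and Mmp8 (chr9:7558429-7568486). Promoter windows from 250 bases before to 50 bases after the annotated start were found for 8 of the 10 members in RefSeq (GRCm38.p6). They were searched on both strands for the AP-1 site TGAGTCA and for the TATA box TATAAA, and no match of one overlapped a match of the other. Both sets of letters were present in the windows of Mmp13, Mmp3 and Mmp10 and in none of the other 5 windows searched. The members not searched were Mmp2 and Mmp9. Over 32851 promoters, 5.2% held the AP-1 letters, 13.6% the TATA letters and 0.941% both. Mmp8, the last of the 4 members along the cluster, held the TATA letters on the opposite strand at position -3 and no AP-1 letters. The 250 bases before the start of Mmp13, Mmp3 and Mmp10 are shown because they alone among the 8 windows searched held both motifs and because their transcript levels differed between lines or settings in the comparisons that follow. They are written on the plus strand with the AP-1 and TATA letters in capitals.
Mmp13 promoter, chr9:7272264-7272513: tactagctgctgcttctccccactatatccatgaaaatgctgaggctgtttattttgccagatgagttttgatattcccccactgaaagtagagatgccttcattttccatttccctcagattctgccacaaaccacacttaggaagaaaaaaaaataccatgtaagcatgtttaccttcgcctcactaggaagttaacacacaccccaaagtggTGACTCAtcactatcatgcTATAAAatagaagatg
Mmp3 promoter, chr9:7445572-7445821: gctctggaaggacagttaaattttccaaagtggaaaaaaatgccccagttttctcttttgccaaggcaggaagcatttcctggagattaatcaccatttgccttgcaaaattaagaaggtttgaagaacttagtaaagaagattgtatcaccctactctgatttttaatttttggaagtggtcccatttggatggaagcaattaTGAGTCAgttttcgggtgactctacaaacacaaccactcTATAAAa
Mmp10 promoter, chr9:7502092-7502341: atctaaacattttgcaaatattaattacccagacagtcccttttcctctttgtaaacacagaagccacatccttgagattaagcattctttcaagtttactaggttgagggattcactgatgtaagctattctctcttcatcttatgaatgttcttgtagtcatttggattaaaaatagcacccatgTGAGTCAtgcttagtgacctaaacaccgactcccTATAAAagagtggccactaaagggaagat
Counted from the annotated start, the first base of the AP-1 letters was at -35 in Mmp13, where they read TGACTCA, at -46 in Mmp3 and at -63 in Mmp10. The TATA letters began at -16, -7 and -29 in the same 3 genes. A match of letters is a description of the sequence and shows no binding.

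Libraries held 14140769 to 24651279 expected counts. Levels between libraries are given as CPM, counts scaled to library size over all 24 libraries, and levels between genes as TPM, transcript shares that account for gene length. Sun1, which encodes an inner nuclear membrane protein, was at 50.5 to 64.8 CPM in knockout tumors and 169 to 192 CPM in control tumors, at 50.9 to 55.5 and 165 to 214 CPM in purified cells, and at 33.7 CPM in cultured knockout cells against 110 and 122 CPM in cultured control cells. Fewer Sun1 transcripts were thus counted in every knockout library than in any control library. The cells are labelled as colon cancer cells, but Epcam, Krt19 and Cdh1, markers of epithelial cells, had 0 counts in all 3 cultured libraries. The epithelial keratin Krt18, named like Col1a1 after its values were seen, was at 0.592 CPM in cultured knockout cells, against 119 CPM in control line 2 and 69.5 CPM in control line 1. Col1a1, a collagen gene used as a marker of fibroblasts, was at 197 to 343 CPM in the same cultures. Of the 11 fibroblast markers examined, 6 were at 1 CPM or more in each culture and 5 were under it.

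In length-corrected levels the order of the members began in the same way in all 8 groups. Timp1 was highest, followed by Timp2 and Mmp14. In knockout tumors Timp1 averaged 372 ± 38.8 TPM, Timp2 142 ± 9.69 TPM and Mmp14 87.1 ± 8.95 TPM (SD, n = 7). In control tumors Timp1 averaged 620 ± 92.2 TPM, Timp2 163 ± 28.2 TPM and Mmp14 86.3 ± 12.7 TPM (SD, n = 8). Next came Mmp3 with 32.4 ± 5.93 TPM in knockout tumors and 74.4 ± 20.2 TPM in control tumors, where it did not differ from Mmp14 beyond the spread. Mmp13 followed with 15.5 ± 5.09 TPM in knockout tumors and 34.1 ± 6.16 TPM in control tumors. Timp3, Mmp2 and Mmp9 lay between 5.59 and 7.48 TPM in knockout tumors, and neighbours among these 3 did not differ beyond their spread. In control tumors Timp3 at 7.42 and Mmp9 at 6.71 TPM did not differ beyond theirs, nor did Mmp9 and Mmp2 at 4.10 TPM. Mmp10 and Mmp8 ended the order with 0.471 and 0.331 TPM in knockout tumors, and with 0.944 and 1.23 TPM in control tumors.

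**Figure D1:**
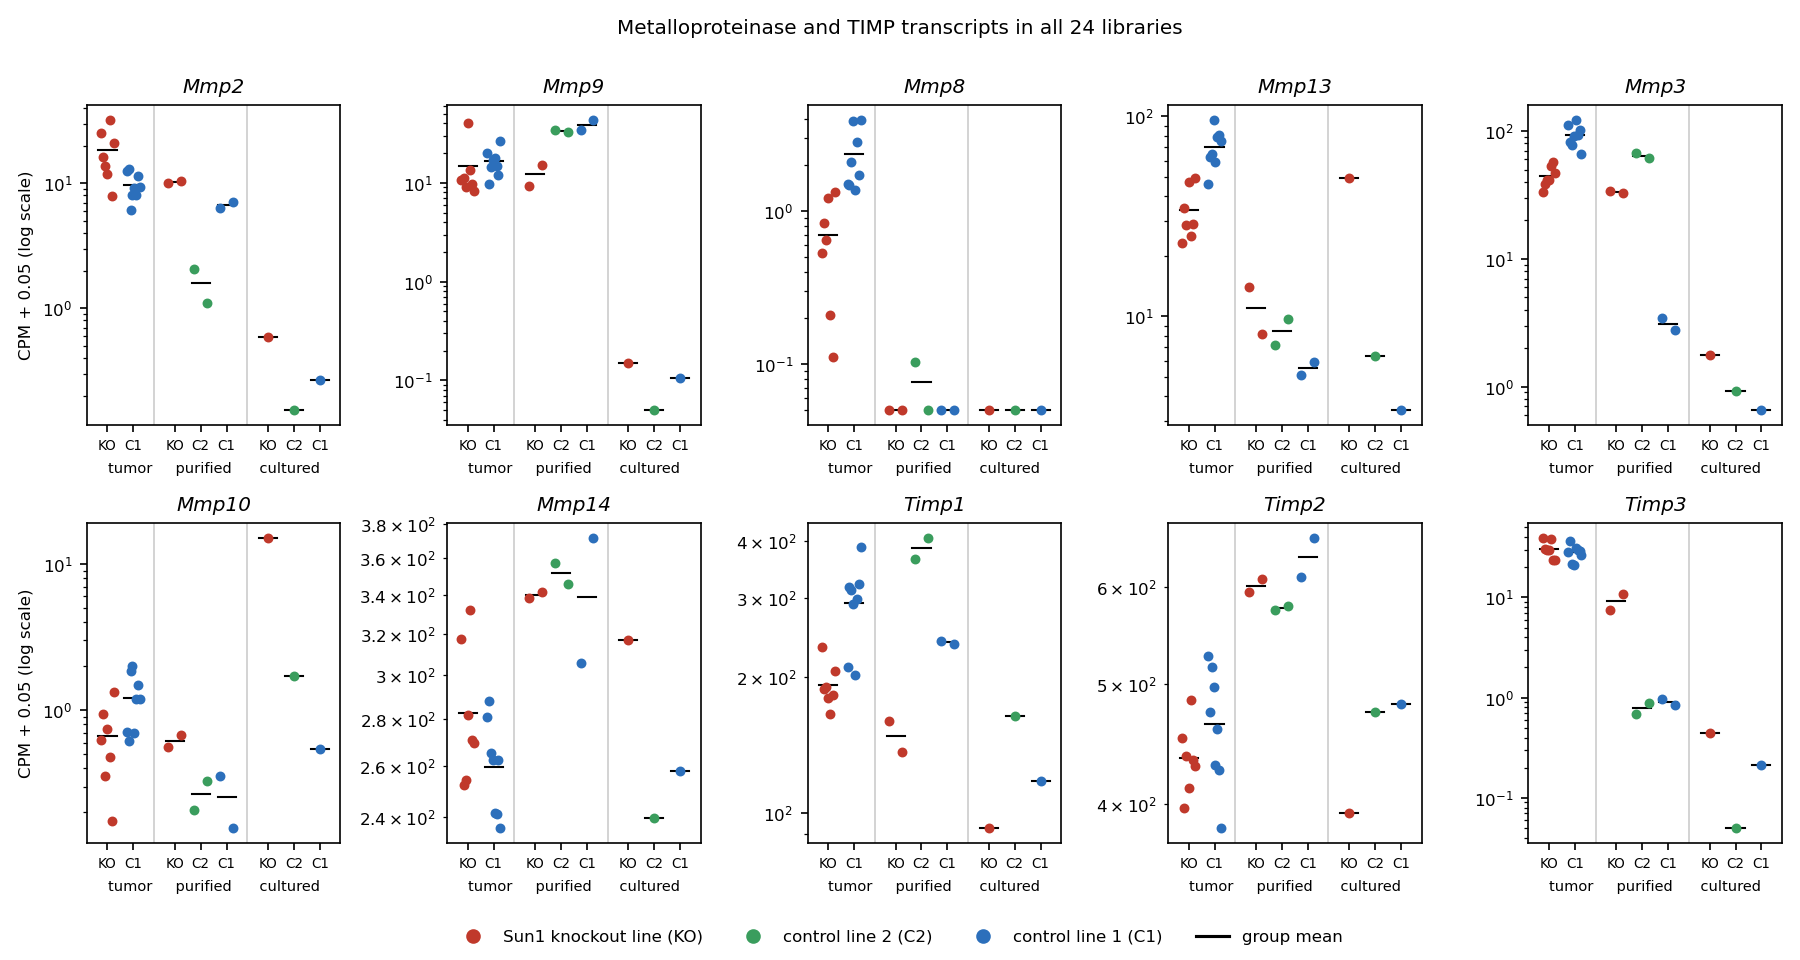
CPM plus 0.05 on a log axis for each of the 10 members, with 1 point per library and a bar at the group mean; KO is the Sun1 knockout line, C2 control line 2 and C1 control line 1. Mmp8 and Mmp3 do not overlap between knockout and control tumors, Timp3 separates knockout from control purified cells, and Mmp13 and Mmp10 are highest in culture in the knockout line.

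Knockout tumors had fewer transcripts of both collagenases, of the stromelysin Mmp3 and of Timp1 than control tumors, and more of the gelatinase Mmp2. Genes were tested by edgeR's quasi-likelihood method, with p-values adjusted by Benjamini and Hochberg over 13752 genes, and a gene is called where its adjusted p is under 0.05. All 10 members passed the filter on low counts. Of these, 1 was called higher and 4 lower, where 18.1% of all genes tested were called higher and 19% lower. The median log2 fold change was -0.38 over the members and 0.01 over all genes tested. The groups did not overlap for 2 of the 10 members, against 9.2% of all genes. The labels do not say whether tumors or purified samples come from separate animals, so the p-values speak only of the spread among these libraries, which may be technical.

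Among the collagenases, Mmp8 was scarce in every tumor. This neutrophil collagenase ranged from 0.0620 over a median of 0.603 to 1.28 CPM in knockout tumors and from 1.33 over 1.87 to 3.92 CPM in control tumors. No knockout tumor reached the lowest control tumor. The log2 fold change was -1.80 ± 0.41 (SE; edgeR adjusted p = 0.00216), from 86 counts over 7 knockout tumors and 354 counts over 8 control tumors. Mmp13, which cuts fibrillar collagens, ranged from 23.3 over 29.0 to 49.1 CPM in knockout tumors and from 45.7 over 70.0 to 96.2 CPM in control tumors. The groups met only where the highest knockout tumors passed the lowest control tumor. Its log2 fold change was -1.05 ± 0.19 (edgeR adjusted p = 0.000654).

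Among the stromelysins, Mmp3 ranged from 33.1 over a median of 41.3 to 57.4 CPM in knockout tumors and from 65.8 over 92.6 to 123 CPM in control tumors. The groups did not overlap, and the log2 fold change was -1.06 ± 0.14 (edgeR adjusted p = 2.69e-05). Mmp10, a close relative of Mmp3, ranged from 0.124 over 0.576 to 1.28 CPM in knockout tumors and from 0.561 over 1.14 to 1.95 CPM in control tumors. The groups overlapped, and Mmp10 was not called (log2 fold change -0.90 ± 0.38, edgeR adjusted p = 0.065). Without knockout tumor 7, or without control tumor 2 or 5, it was called, with edgeR adjusted p down to 0.0219. Mmp3 and Mmp10 lie in the same cluster and have similar sequences, so the authors' count estimates could share some reads between them.

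The gelatinases differed from each other. Mmp2, which degrades gelatin and basement membrane collagen, ranged from 7.93 over a median of 16.2 to 32.2 CPM in knockout tumors and from 6.03 over 9.16 to 12.8 CPM in control tumors. The groups overlapped in their lower part, and the log2 fold change was 0.94 ± 0.26 (edgeR adjusted p = 0.0113). Mmp9 ranged from 8.28 over 10.6 to 40.0 CPM in knockout tumors and from 9.74 over 15.9 to 26.6 CPM in control tumors. The highest of all 15 tumors was thus knockout tumor 4, while the other knockout tumors were at 13.5 CPM or below. Over all tumors Mmp9 was not called (log2 fold change -0.16 ± 0.35, edgeR adjusted p = 0.738). Without knockout tumor 4 it was called lower, at -0.65 on the log2 scale (edgeR adjusted p = 0.0126).

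Mmp14 ranged from 252 over a median of 271 to 332 CPM in knockout tumors and from 236 over 262 to 288 CPM in control tumors. The groups overlapped and it was not called (0.13 ± 0.07, edgeR adjusted p = 0.127). Timp1, a broad inhibitor of the secreted enzymes, ranged from 166 over 188 to 233 CPM in knockout tumors and from 202 over 305 to 388 CPM in control tumors. The groups overlapped slightly, and Timp1 fell by 0.60 ± 0.12 on the log2 scale (edgeR adjusted p = 0.000954). Timp2, which also takes part in Mmp2 activation, ranged from 397 over 434 to 485 CPM in knockout tumors and from 382 over 467 to 527 CPM in control tumors. Timp3, which binds to the matrix and also inhibits ADAM proteases, ranged from 23.3 over 29.5 to 39.4 CPM in knockout tumors and from 20.9 over 28.9 to 36.6 CPM in control tumors. Neither was called, with log2 fold changes of -0.08 ± 0.07 for Timp2 and 0.13 ± 0.13 for Timp3.

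**Figure D2:**
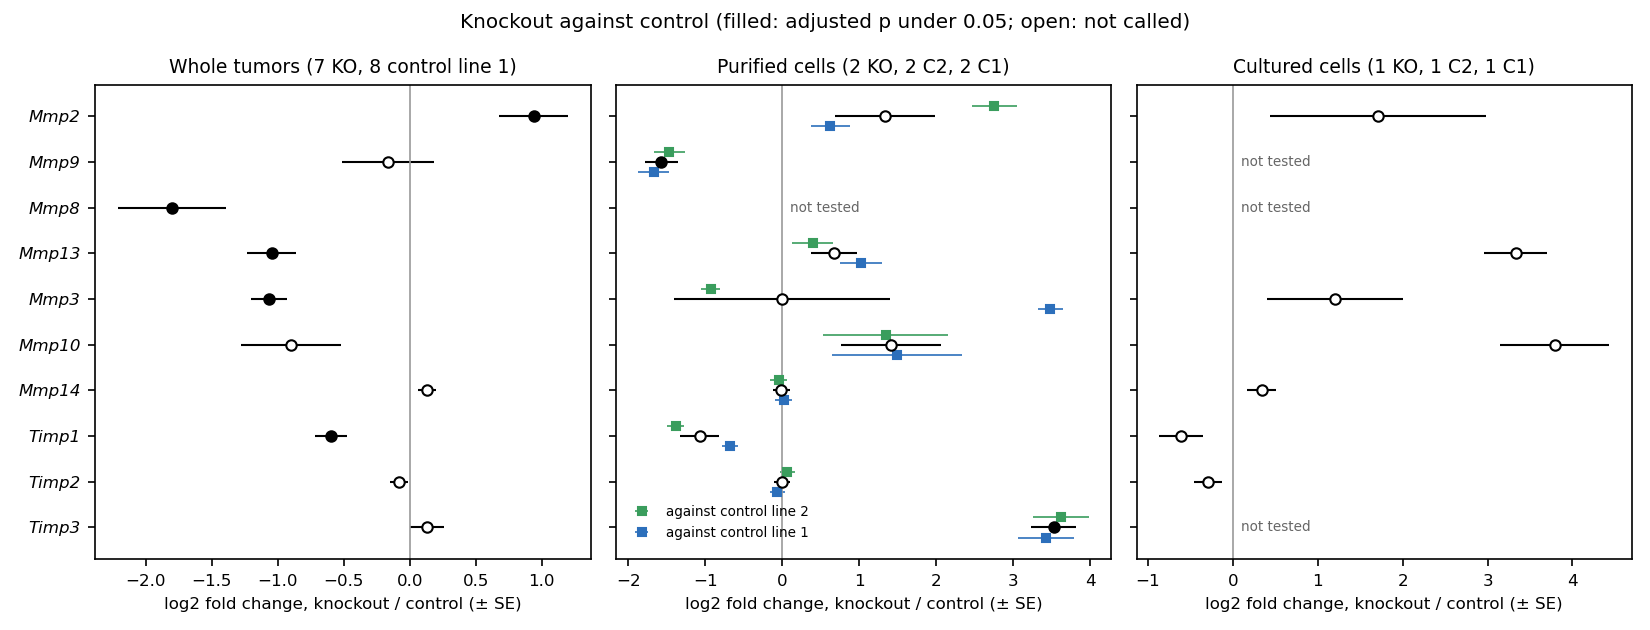
Log2 fold change of knockout over control with its standard error, for whole tumors, purified cells and cultured cells, each panel with its own horizontal scale; circles are the comparisons with all control libraries, filled where called, and squares set purified knockout cells against control line 2 or control line 1 alone. In purified cells the squares of Mmp3 stand at -0.93 against control line 2 and 3.48 against control line 1, on either side of the circle at -0.01.

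In tumor cells purified from the tumors, Timp3 was higher and Mmp9 lower in the knockout line than in both control lines. For the comparison with both control lines 9 members were tested, all but Mmp8. Of these, 1 was called higher and 1 lower (edgeR), where 2.26% and 2.29% of 12476 genes were called higher and lower. The groups did not overlap for 5 of the 9, against 34.5% of all genes tested. The median log2 fold change was -0.00305 over the members and -0.01 over all genes.

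Timp3 was at 7.48 and 10.7 CPM in purified knockout cells, at 0.632 and 0.831 CPM in control line 2 and at 0.909 and 0.794 CPM in control line 1. Both knockout libraries stood above all 4 control libraries, a log2 difference of 3.52 ± 0.29 (edgeR adjusted p = 0.000449). Mmp9 was at 9.32 and 15.01 CPM in purified knockout cells, at 34.3 and 33.0 CPM in control line 2 and at 34.4 and 43.6 CPM in control line 1. Both knockout libraries stood below all control libraries (-1.57 ± 0.21, edgeR adjusted p = 0.00446). Without the first knockout library the adjusted p was 0.0533, and in a fit of all 24 libraries it was 0.0723. Timp1 was at 160 and 136 CPM in purified knockout cells, at 366 and 407 CPM in control line 2 and at 241 and 237 CPM in control line 1. Its groups did not overlap either, but with both control lines in 1 arm it missed the threshold (-1.08 ± 0.25, edgeR adjusted p = 0.0516). With 1 library left out at a time, its edgeR adjusted p ran from 0.0274 to 0.441.

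Several members differed between the control lines themselves, so that the value for the knockout depended on the line it was set against. Mmp3 was at 34.1 and 33.0 CPM in purified knockout cells, at 67.1 and 61.3 CPM in control line 2 and at 3.39 and 2.70 CPM in control line 1. The knockout line stood between the control lines, and the fold change against both was -0.01 ± 1.41 on the log2 scale. With each control line as its own group, the knockout line was 1.27 above the mean of the 2 control lines on the log2 scale (edgeR adjusted p = 1.05e-05). That p covers the spread between libraries of a line and not the spread between lines. In CPM the knockout libraries averaged 33.55 and the control libraries of both lines 33.63. Against control line 2 alone Mmp3 was lower in the knockout line (-0.93 ± 0.13, edgeR adjusted p = 0.000245), and against control line 1 alone it was higher (3.48 ± 0.16, edgeR adjusted p = 4.56e-08). Mmp2 was at 10.1 and 10.4 CPM in purified knockout cells, at 2.00 and 1.06 CPM in control line 2 and at 6.30 and 7.09 CPM in control line 1. It was called higher against control line 2 (2.75 ± 0.29, edgeR adjusted p = 3.72e-05) and not against control line 1 (0.62 ± 0.25, edgeR adjusted p = 0.111). Mmp13 was at 14.0 and 8.08 CPM in purified knockout cells, at 7.16 and 9.65 CPM in control line 2 and at 5.03 and 5.88 CPM in control line 1. It was called higher against control line 1 (1.03 ± 0.27, edgeR adjusted p = 0.0203), where the knockout libraries did not meet the control libraries, and not against control line 2 (0.39 ± 0.26, edgeR adjusted p = 0.31).

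Against control line 2 alone, 2 members were called higher and 3 lower (edgeR), where 11% and 10.5% of all genes were called higher and lower. Against control line 1 alone, 3 were called higher and 2 lower, where the shares of all genes were 8.32% and 10.1%. Timp3 was higher, and Mmp9 and Timp1 lower, against either control line. The log2 fold change of Timp1 was -1.38 ± 0.11 against control line 2 (edgeR adjusted p = 3.44e-06) and -0.68 ± 0.11 against control line 1 (edgeR adjusted p = 0.00104). Mmp14 stayed near 340 CPM in all 3 lines, at 339 and 342 CPM in purified knockout cells, 357 and 346 CPM in control line 2 and 305 and 372 CPM in control line 1. Timp2 was at 594 and 608 CPM in purified knockout cells, 575 and 579 CPM in control line 2 and 610 and 657 CPM in control line 1. Neither was called against either line. Mmp10 was at 0.505 and 0.629 CPM in purified knockout cells, 0.158 and 0.277 CPM in control line 2 and 0.303 and 0.106 CPM in control line 1, from 24, 9 and 7 counts per group, and was not called. Mmp8 had 0 counts in purified knockout cells and in control line 1, and 1 count in control line 2.

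Set against each other, the control lines differed for 3 of the 9 members tested. In control line 2 relative to control line 1, Mmp3 was higher by 4.41 ± 0.16 on the log2 scale (edgeR adjusted p = 5.73e-09) and Timp1 by 0.70 ± 0.11 (edgeR adjusted p = 0.00127). Mmp2 fell by 2.13 ± 0.30 on the log2 scale in control line 2 (edgeR adjusted p = 0.000631). Over all genes tested in this comparison, 6.73% were called higher and 9.01% lower. The tumor comparison holds control line 1 and no tumor of control line 2.

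In culture more transcripts of Mmp13 and Mmp10 were counted in the knockout library than in either control library. Mmp13 was at 49.0 CPM in cultured knockout cells (exact 95% binomial interval 46.0 to 52.1, from 994 counts), at 6.30 CPM in control line 2 (5.23 to 7.52) and at 3.35 CPM in control line 1 (2.56 to 4.30). Mmp10 was at 15.1 CPM in cultured knockout cells (13.4 to 16.9, from 306 counts), at 1.65 CPM in control line 2 (1.13 to 2.33) and at 0.494 CPM in control line 1 (0.226 to 0.937). These intervals do not overlap between the lines, and they cover counting error only. With 1 knockout library the fit assumes that it varies as the control lines do. The log2 fold changes were 3.33 ± 0.37 for Mmp13 and 3.79 ± 0.65 for Mmp10, with edgeR adjusted p of 0.147 and 0.45.

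Of the 7 members tested in culture, 0 were called by edgeR, as were 0% of all 12175 genes in the higher and 0% in the lower direction, while 659 genes had an unadjusted p under 0.05. DESeq2's Wald test called 13 genes higher and 31 lower, Mmp13 and Mmp10 among the higher ones. Either fit has 1 knockout library, so the difference in culture has no replicate of the knockout behind it. The knockout value lay outside the control values for all 7 members tested, which was so for 68.1% of all genes. Mmp14 was at 317 CPM in cultured knockout cells, 240 CPM in control line 2 and 258 CPM in control line 1. Timp1 was at 92.5, 164 and 118 CPM and Timp2 at 393, 474 and 482 CPM in cultured knockout cells, control line 2 and control line 1. Mmp2 and Mmp3 were at or under 1.73 CPM in each cultured line. Mmp9 had 2, 0 and 1 counts in the knockout line, control line 2 and control line 1, Timp3 had 8, 0 and 3 counts, and Mmp8 had 0 counts in all 3 cultures, where 3 counts correspond to 0.148 to 0.165 CPM.

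Purified tumor cells differed from cultured cells of the same lines in nearly all of the 9 members tested. With line as a covariate, 7 were called higher and 1 lower in purified cells (edgeR), against 22.1% and 21.4% of 12651 genes. Mmp9 had 3268 counts over 6 purified libraries and 3 counts over the 3 cultured ones, a ratio of 532 (exact 95% interval 182 to 2582, counting error only). The purified-to-cultured ratio of Mmp2 was 18.9 in the knockout line (10.4 to 38.0), 14.5 in control line 2 (3.86 to 123) and 30.7 in control line 1 (11.8 to 113), from 11, 2 and 4 counts in the cultures. Its log2 fold change was 4.39 ± 0.34 (edgeR adjusted p = 9.85e-07). The ratio of Mmp3 was 19.5 in the knockout line (13.9 to 28.0), 73.0 in control line 2 (45.5 to 125) and 5.01 in control line 1 (2.69 to 10.3), with a log2 fold change over the lines of 4.78 ± 0.49 (edgeR adjusted p = 0.000215). In every line the transcripts of both gelatinases and of Mmp3 were thus more abundant in purified than in cultured cells.

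Some markers used for host cells were also higher in purified than in cultured cells. In this comparison 22.1% of all genes tested were called higher and 21.4% lower. Of 10 fibroblast markers tested 8 were called higher and 0 lower (edgeR), with a median log2 fold change of 2.03 and sums of 3581 to 6068 CPM in purified and 1456 to 1898 CPM in cultured cells. Cultures hold no host cells, so the fibroblast list does not tell host from tumor cells here. Of 9 macrophage markers 3 were higher (C1qb, C1qc and Aif1) and 0 lower, with sums of 7.89 to 36.9 CPM in purified and 7.90 to 9.76 CPM in cultured cells. In the knockout line the macrophage sums were 7.89 to 9.54 CPM in purified and 8.08 CPM in cultured cells. In both control lines the purified sums stood above the cultured one. Among the leukocyte markers 2 of 4 were higher (Itgb2 and Laptm5), with sums of 11.7 to 20.6 CPM in purified and 7.90 to 13.8 CPM in cultured cells. Both endothelial markers tested, Pecam1 and Eng, were higher, with sums of 6.90 to 14.5 CPM in purified and 5.16 to 11.6 CPM in cultured cells. Postn and Cd163 had 0 counts in all 3 cultures, and of the neutrophil markers 0 could be tested. The part of these cells in the member values of purified cells was not tested.

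Timp3 was 23.0 times higher in purified than in cultured knockout cells, with a counting interval of 11.6 to 53.6. In control line 2 it was at least 4.77-fold higher, against a floor of 3 counts, and in control line 1 the ratio was 5.15 (1.60 to 26.4). Timp1 was higher by 0.99 ± 0.10 and Timp2 by 0.44 ± 0.08 on the log2 scale (edgeR adjusted p = 1.37e-05 and 0.00107), and Mmp14 by 0.36 ± 0.09 (edgeR adjusted p = 0.00833). The call of Mmp14 was lost without either cultured control library. Mmp10 went the other way and was called lower in purified than in cultured cells (-3.52 ± 0.50, edgeR adjusted p = 0.000136). Its mean was 0.567 CPM in purified against 15.1 CPM in cultured knockout cells, 0.218 against 1.65 CPM in control line 2 and 0.204 against 0.494 CPM in control line 1. In control line 1 this rested on 7 counts over the purified libraries and 9 in culture. The purified library at 0.303 CPM lay within the culture's counting interval of 0.226 to 0.937 CPM, and the one at 0.106 CPM lay below it. Mmp13 was not called (-0.62 ± 0.58, edgeR adjusted p = 0.431), and its lines disagreed. It averaged 11.02 CPM in purified against 49.0 CPM in cultured knockout cells, 8.41 against 6.30 CPM in control line 2 and 5.45 against 3.35 CPM in control line 1. Its log2 fold change was 0.56 without the cultured knockout library.

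Whole tumors contain host cells beside tumor cells, and in such bulk samples a change in the number of cells of a type and a change in RNA per cell cannot be told apart. In the knockout line 5 of the 10 members were called higher and 1 lower in whole tumors than in purified cells (edgeR), where 31.1% and 25.3% of 14569 genes were called. In control line 1, 5 were called higher and 3 lower, against 30.2% and 23.7% of 14331 genes. Median log2 fold changes over the members were 0.42 in the knockout line and 1.55 in control line 1, against 0.08 and 0.06 over all genes. All 10 macrophage markers and all 4 leukocyte markers were called higher in whole tumors than in purified cells of either line (edgeR). Purified cells also went through a tumor cell isolation kit, and the tumor libraries are those of the comparison of knockout with control tumors.

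Mmp8, with 0 counts in purified cells of both lines, was at least 9.26-fold higher in knockout tumors and at least 27.0-fold higher in control tumors, against a floor of 3 counts over the purified group. Mmp13 was higher in tumors by 1.64 ± 0.36 on the log2 scale in the knockout line (edgeR adjusted p = 0.00331) and by 3.72 ± 0.29 in control line 1 (edgeR adjusted p = 9.51e-07). Mmp3 was higher by 0.43 ± 0.17 in the knockout line (edgeR adjusted p = 0.0475) and by 4.98 ± 0.29 in control line 1 (edgeR adjusted p = 4.83e-08). The call in the knockout line did not hold without knockout tumor 4, 5 or 7 or without either purified library. In control line 1 Mmp3 averaged 93.3 ± 18.4 CPM in whole tumors (SD, n = 8), against 3.39 and 2.70 CPM in purified cells. Mmp10 was called higher in control line 1 (2.54 ± 0.68, edgeR adjusted p = 0.00468) and not in the knockout line (0.14 ± 0.66, edgeR adjusted p = 0.865).

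Timp3 was higher in whole tumors by 1.77 ± 0.23 in the knockout line (edgeR adjusted p = 3.81e-05) and by 5.08 ± 0.28 in control line 1 (edgeR adjusted p = 2.67e-09). Timp1 was called higher in the knockout line (0.41 ± 0.11, edgeR adjusted p = 0.00725), with an adjusted p of 0.16 without the second purified knockout library, and not in control line 1 (0.33 ± 0.20, edgeR adjusted p = 0.196). Timp2 was lower in whole tumors than in purified cells in both lines, by a log2 fold change of -0.44 ± 0.08 in the knockout line and -0.41 ± 0.10 in control line 1 (edgeR adjusted p = 0.00038 and 0.00322). Mmp9 was lower in whole tumors in control line 1 (-1.20 ± 0.28, edgeR adjusted p = 0.0037), as was Mmp14 (-0.34 ± 0.09, edgeR adjusted p = 0.00523). Neither was called in the knockout line. Without the second purified library of control line 1, the calls of Mmp9, Mmp10, Mmp14 and Timp2 in that line were lost. Mmp2 was called in neither line.

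**Figure D3:**
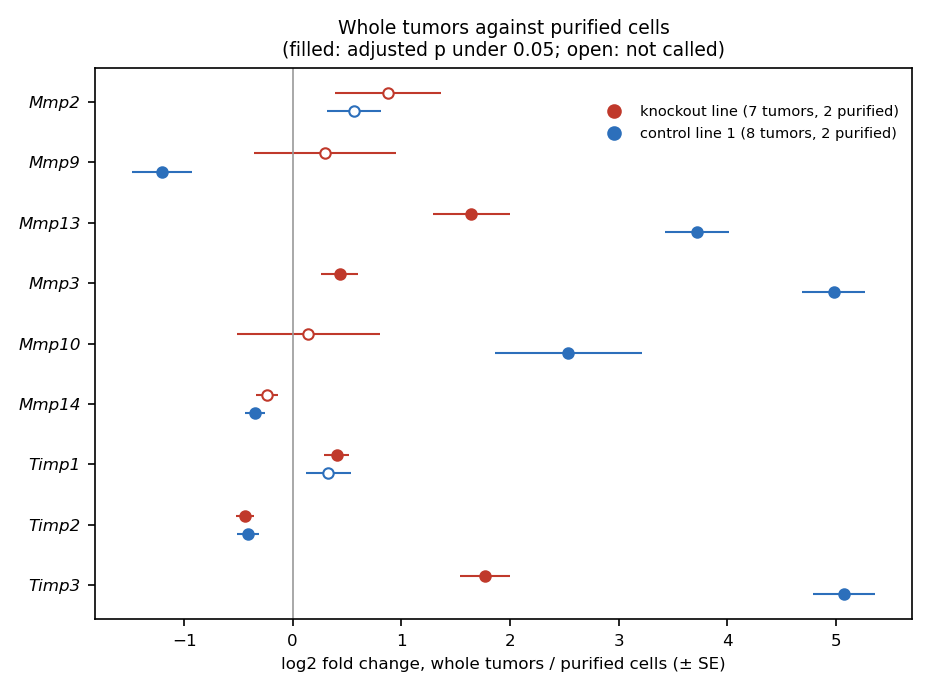
Log2 fold change of whole tumors over purified cells with its standard error, in the knockout line and in control line 1, for the 9 members other than Mmp8; filled points are called and open points are not. Mmp3 stands at 0.43 in the knockout line and 4.98 in control line 1, Timp3 at 1.77 and 5.08, and Mmp13 at 1.64 and 3.72.

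The difference between knockout and control line 1 was itself compared between whole tumors and purified cells, as the interaction of genotype and setting in the same libraries. Of the 10 members 3 were called, all 3 lower (edgeR), against 4.82% higher and 5.27% lower of 15033 genes. For Mmp3 the knockout effect in tumors minus that in purified cells was -4.53 ± 0.35 on the log2 scale (edgeR adjusted p = 2.57e-07). For Timp3 it was -3.29 ± 0.41 (edgeR adjusted p = 7.17e-05) and for Mmp13 -2.06 ± 0.47 (edgeR adjusted p = 0.0119). Mmp13 and Mmp3 were lower in knockout than in control tumors, yet higher in knockout than in control line 1 purified cells. Against purified control line 2, Mmp3 was lower in the knockout line (-0.93 ± 0.13), Mmp13 was not called and Timp3 was higher (3.62 ± 0.36). The interaction call of Mmp13 was lost without the first purified knockout library or without either purified library of control line 1. Mmp8 gave no usable value, having 0 counts in both purified groups. Because the tumors include control line 1 alone, the effect against control line 2 was not measured in tumors.

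Summed over members, inhibitor transcripts exceeded protease transcripts in every library. The 7 metalloproteinases together made up 132 to 170.9 TPM in knockout tumors and 171.4 to 257 TPM in control tumors. The 3 TIMPs made up 470 to 581 TPM in knockout tumors and 642 to 899 TPM in control tumors. TIMP transcripts per metalloproteinase transcript ranged from 2.88 over a median of 3.58 to 4.15 in knockout tumors and from 2.71 over 4.04 to 5.25 in control tumors. The ratios overlapped, while both sums were lower in every knockout tumor than in the lowest control tumor, the metalloproteinase sum by a narrow margin. The ratio was 3.29 and 3.57 in purified knockout cells, 5.18 and 5.88 in control line 2 and 4.98 and 5.88 in control line 1. In culture it was 2.36 in knockout cells, 6.09 in control line 2 and 4.73 in control line 1. Mmp14 alone made up 54.4% to 66.4% of the metalloproteinase sum in knockout tumors and 36.7% to 47.4% in control tumors. In culture it made up 73.3% in knockout cells, 93.9% in control line 2 and 97.0% in control line 1.

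**Figure D4:**
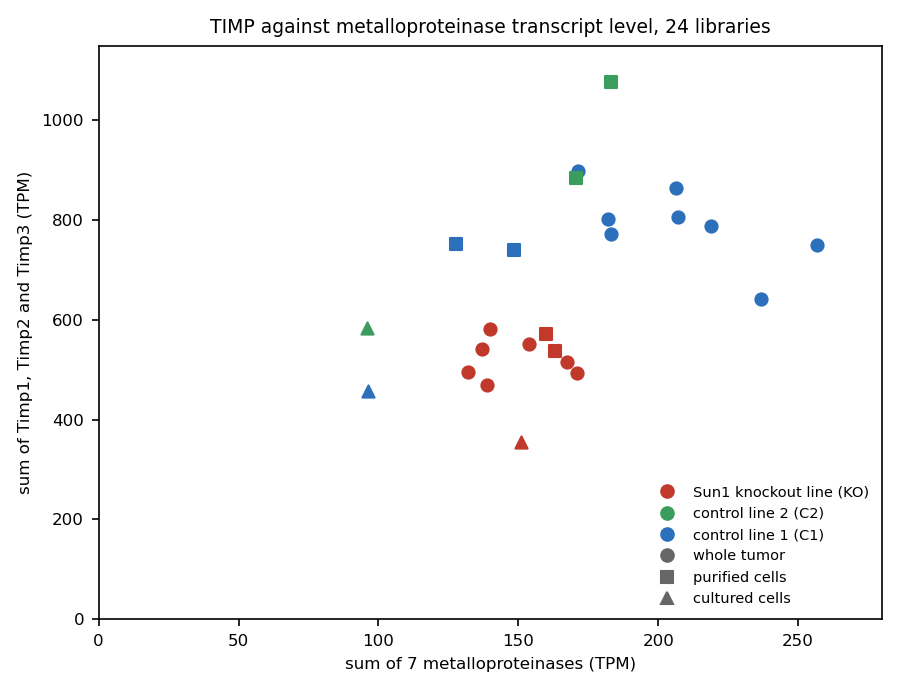
Sum of Timp1, Timp2 and Timp3 against the sum of the 7 metalloproteinases, both in TPM, for all 24 libraries; color marks the line and shape the setting. Knockout tumors lie at 132 to 170.9 TPM of metalloproteinases and 470 to 581 TPM of TIMPs, to the lower left of control tumors at 171.4 to 257 and 642 to 899 TPM.

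Within genotypes the members did not move as 1 group across the 15 tumors. Deviations of log2 CPM from the genotype mean were most alike for Mmp8 and Mmp10 (Pearson r = 0.777) and for Mmp8 and Mmp13 (r = 0.706), all in the chromosome 9 cluster. Mmp8 and Mmp10 were scarce, with 86 and 81 counts over 7 knockout tumors and 354 and 178 over 8 control tumors. Among knockout tumors both were lowest in tumor 6 and highest in tumor 7. Mmp3, from the same cluster, had r = -0.147 with Mmp13 and -0.578 with Mmp8. Timp1 and Mmp3 deviated in opposite directions (r = -0.79). Timp3 went with Mmp2 (r = 0.68), and Timp2 with Mmp14 (r = 0.675). Tumors share their library depth and cell makeup across genes, so these values describe the 15 libraries.

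Among genes averaging 5 CPM or more, the 3 with the highest r over the 15 tumors were listed for each member averaging 1 CPM or more. For each member 10292 genes were searched, or 10293 for Mmp8. The highest r of so many genes over 15 tumors is large by selection, and the relations were not tested. Mmp2 was closest to Mfap5, a protein of microfibrils (r = 0.906), then to Slc43a2 and Il3ra. Timp3 was closest to Il21r (r = 0.94), Cd300c2 (r = 0.934) and Igsf6 (r = 0.927), genes of immune cell receptors. Mmp14 was closest to Necap2 (r = 0.942) and Vasp (r = 0.911), an actin regulator, and Timp1 to Btc (r = 0.91), which encodes the growth factor betacellulin, Chmp2a and Mt2. Mmp13 was closest to Smad2 and Clk3 (r = 0.863 each) and to Il1rn (r = 0.826), Mmp3 to Prss23 (r = 0.828), Gas2 and Serinc5, and Timp2 to Tsc22d4 (r = 0.9), Heca and Rnf40. Mmp8 was closest to Tnfrsf23 (r = 0.879), Tbc1d31 and P4ha1, which encodes a subunit of collagen prolyl hydroxylase. For Mmp9 the genes were Fuk (r = 0.841), Homer1 (r = 0.838) and Ctsk (r = 0.835). The r with Ctsk fell to 0.399 without the 2 tumors farthest from the median in Ctsk.

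Other proteases of the family were tested in the same tumor comparison, in which 18.1% of all genes were called higher and 19% lower. Of 16 further metalloproteinase genes 8 were tested, of which 4 were called lower and 1 higher in knockout tumors (edgeR), with a median log2 fold change of -0.38. The higher one was Mmp23 (0.91) and the lower ones included Mmp11 (-0.37). Mmp28, known as epilysin, fell by 1.44 ± 0.18 on the log2 scale (edgeR adjusted p = 4.71e-06) and Mmp19 by 0.68 ± 0.10 (edgeR adjusted p = 4.58e-05). Mmp12, the macrophage elastase that lies beside Mmp13 in the cluster, averaged 50.04 ± 20.5 CPM in knockout tumors (SD, n = 7) and 143 ± 42.2 CPM in control tumors (SD, n = 8), a log2 difference of -1.50 ± 0.28 (edgeR adjusted p = 0.00108). It was at or under 1.74 CPM in all purified and cultured libraries. Mmp11, Mmp12 and Mmp23 were named after their values were seen. Of 5 further inhibitors 2 were tested. Tfpi2, a secreted inhibitor of serine proteases, was higher in knockout tumors (1.37 ± 0.33, edgeR adjusted p = 0.00273), and Reck, a membrane-anchored inhibitor of metalloproteinases, was lower (-0.28 ± 0.09, edgeR adjusted p = 0.0139).

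The lists that follow stand against shares of 18.1% higher and 19% lower over all genes tested in tumors. In the plasminogen system, which can activate metalloproteinase precursors, 2 of 7 genes tested were called higher and 0 lower. They were Plgrkt (0.42 ± 0.09) and Serpine2 (0.63 ± 0.22), with edgeR adjusted p = 0.00149 and 0.0301, and the median over the list was 0.01. Of the proprotein convertases, which cleave the Mmp14 precursor, 0 of 3 tested were called by edgeR (Furin -0.26 ± 0.12, Pcsk5 0.96 ± 0.42 and Pcsk7 0.08 ± 0.08), although 2 had an unadjusted p under 0.05. Among the 7 ADAM proteases Adam19 was called higher (0.87 ± 0.17, edgeR adjusted p = 0.000774) and Adam9 lower (-0.30 ± 0.06, edgeR adjusted p = 0.000417). Of 10 ADAMTS genes tested, Adamts5, Adamts10 and Adamts14 were higher and Adamts1 was lower. Adamts5, an aggrecan-degrading protease, had the smallest p, with 4.91 ± 2.55 CPM in knockout tumors (SD, n = 7) and 1.52 ± 0.29 CPM in control tumors (SD, n = 8), a log2 difference of 1.70 ± 0.25 (edgeR adjusted p = 4.57e-05).

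Of 11 AP-1 and ETS transcription factors, known regulators of metalloproteinase promoters, 1 was called higher and 3 lower in knockout tumors, with a median of -0.10. The shares of all genes tested in tumors were 18.1% higher and 19% lower. Fos was the higher one and Ets1 one of the lower ones. Fosl2 fell by 0.41 ± 0.07 on the log2 scale (edgeR adjusted p = 0.000154) and Ets2 by 0.38 ± 0.08 (edgeR adjusted p = 0.00108). Between purified and cultured cells, 2 of the 11 were higher (Jun and Etv4) and 5 lower (Fos, Fosb, Junb, Jund and Ets2). The shares of all genes there were 22.1% higher and 21.4% lower. The largest fall was -3.06 on the log2 scale for Fos (edgeR adjusted p = 0.00371). Of 9 inducers and partners tested, Tnf was higher and Bsg, Lcn2, Cd44 and Osm were lower in knockout tumors. Bsg, an inducer of metalloproteinases also known as EMMPRIN, fell by 0.33 ± 0.08 (edgeR adjusted p = 0.00276). Lcn2, whose product binds Mmp9, averaged 0.583 ± 0.501 CPM in knockout tumors (SD, n = 7) and 1.63 ± 0.70 CPM in control tumors (SD, n = 8), and fell by 1.47 ± 0.42 (edgeR adjusted p = 0.0103).

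Markers used for host cells were tested in the same tumor comparison, in which 18.1% of all genes were called higher and 19% lower. The fibroblast markers among them also summed to 1456 to 1898 CPM in the cultured lines. All 4 leukocyte markers (Ptprc, Itgb2, Laptm5 and Coro1a) were called higher in knockout tumors (edgeR), with summed levels of 417 to 704 CPM in knockout tumors and 260 to 492.9 CPM in control tumors. Of 10 macrophage markers Aif1, C1qa and C1qc were higher and 0 were lower, with sums of 1290 to 3187 CPM in knockout tumors and 933 to 2551 CPM in control tumors. Of 11 fibroblast markers Dpt, Fap, Postn and Thy1 were higher and Dcn was lower, with sums of 2343 to 3663 CPM in knockout tumors and 2476 to 3555 CPM in control tumors. Among 6 endothelial markers tested Pecam1, Eng and Emcn were higher, with sums of 89.8 to 139 CPM in knockout tumors and 75.4 to 92.0 CPM in control tumors. Neutrophil markers were near the limit of detection, with sums of 5.70 to 20.5 CPM in knockout tumors and 9.43 to 14.5 CPM in control tumors. Of these 11 neutrophil markers 2 could be tested and 0 were called by edgeR, and Retnlg, Ly6g, Camp, Mpo and Elane had 0 counts in all 7 knockout tumors. In control tumors Mpo was at 0 in all 8, while Retnlg, Ly6g, Camp and Elane were detected in 1 or 2 tumors each, at up to 0.198 CPM. The part of these cells in the member values was not tested.

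In purified cells the leukocyte markers summed to 16.5 to 18.6 CPM in the knockout line, 11.7 to 12.7 CPM in control line 2 and 15.6 to 20.6 CPM in control line 1. Against both control lines 0 of the 4 were called, with a median log2 fold change of -1.33. In the knockout line 3 of the 4 averaged under 1 CPM, against 1 in control line 2 and 0 in control line 1. In cultured knockout cells Itgb2 alone made up 12.8 of the summed 13.8 CPM. The macrophage markers summed to 7.89 to 9.54 CPM in the knockout line, 16.9 to 36.9 CPM in control line 2 and 23.6 to 29.3 CPM in control line 1. The macrophage gene Lyz2 was lower in the purified knockout line (-1.91 ± 0.41, edgeR adjusted p = 0.0352), the 1 marker called of 9 tested, with a list median of -1.46. The fibroblast gene Dpt was higher there (3.05 ± 0.26, edgeR adjusted p = 0.000541), at 16.1 CPM on average in the knockout line, 2.29 CPM in control line 2 and 1.59 CPM in control line 1. It was the 1 marker called of 10 fibroblast markers tested, whose median log2 fold change was -0.15. The fibroblast markers summed to 3982 to 4213 CPM in the purified knockout line, 3581 to 3598 CPM in control line 2 and 5693 to 6068 CPM in control line 1. Postn, a marker of activated fibroblasts, was under 0.48 CPM in every purified library. Lyz2 and Dpt were named after their values were seen, and the part of these cells in Mmp9 and Timp3 was not tested. Timp1 lies within the gene Syn1 and Timp3 within Syn3, and whether the counting used strand is not stated. Syn1 was at most 1.43 CPM in any library. Syn3 was at 0.872 and 0.968 CPM in purified knockout cells, 1.53 and 1.11 CPM in control line 2 and 1.03 and 1.16 CPM in control line 1, above the level of Timp3 in the control lines and below it in the knockout line. Mmp8 overlaps Gm31751, which had 0 counts in every library, while Gm45472, which overlaps Mmp2, and Cep295nl, which overlaps Timp2, were not analysed here. Sharing of reads within these pairs was not tested.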

How the data were processed

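The authors deposited, per sample, a table of genes with an expected count and a TPM value. Per the submitters' processing notes, FastQC, STAR, RSEM and DESeq2 were used with mm10, with no versions given, and whether reads were counted by strand is not given in the sources used here. The deposited expected counts were rounded to whole numbers and tested with edgeR 4.0.16 (limma 3.58.1, R 4.3.3), using TMM scaling, filterByExpr (minimum count 10, minimum total 15), a robust quasi-likelihood fit and Benjamini-Hochberg adjustment over all genes tested at 0.05. Each standard error was the size of the log2 fold change divided by the root of its F value. CPM used TMM factors over all 24 libraries, with 14140769 to 24651279 counts each. The deposited TPM values compared genes. The knockout was tested in tumors, in purified cells and in culture, and settings were compared within lines. The steps were tested on simulated data. DESeq2 1.42.0, its size factors, no filter, a replicate block, other control arms and leaving out each library were alternatives. No pair of libraries of 1 group agreed within sampling noise (smallest chi-square per gene 7.38 over 52 pairs). The members and gene lists were chosen with earlier results of these data known. Beside the members, the text names the 2 genes of each list with the smallest p in tumors, genes overlapping a member, and the 3 genes most like each member. Other genes, such as those behind counts of 5 or fewer in a list, were named after their values were seen. Sequences came from RefSeq (GRCm38.p6).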

Additional observations from a re-analysis of the deposited data

Results flagged for a closer look

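Knockout tumor 4 had 40.0 CPM of Mmp9, and its gap to the nearest of the 7 knockout tumors exceeded Dixon's 95% critical value. It was the only such value among 20 sets, the 10 members in 7 knockout tumors and in 8 control tumors. The highest and the lowest value of each set were checked, and chance gives about 1 in 20. The sets share the same tumors, so they are not independent. The knockout effect against control line 1 differed between whole tumors and purified cells for Mmp3 (-4.53 on the log2 scale), Timp3 (-3.29) and Mmp13 (-2.06), by the edgeR interaction of genotype and setting. Mmp3 averaged 44.4 CPM in knockout and 93.3 CPM in control tumors, but 33.6 CPM in knockout and 3.05 CPM in control line 1 purified cells. Purified cells of control line 2 averaged 64.2 CPM, and against them Mmp3 was lower in purified knockout cells (-0.93 on the log2 scale). The flagged difference of Mmp3 thus depends on the control line used.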

How the results depend on the processing

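Over all alternatives, 962 fold changes of members kept their direction and side of the threshold, 35 changed sign, 30 gained a call and 23 lost one. In tumors the 5 called members stayed called in every alternative run. In purified cells, against 282 genes higher and 286 lower, the counts were 585 and 620 by DESeq2's Wald test, 454 and 454 without a filter, 1038 and 1262 against control line 1, 1369 and 1307 against control line 2, 1305 and 1265 against the mean of the 2 control lines, and 1283 and 1194 with all 24 libraries in 1 fit. Members called higher there were 3 against control line 1, 2 against control line 2, 4 against the mean and 3 with all libraries, and members called lower were 2 by DESeq2, 2 against control line 1, 3 against control line 2 and 2 against the mean. Mmp3, at -0.01, became 0.00246 with DESeq2 size factors, 0.00753 by DESeq2, 0.00220 without a filter, 3.48 against control line 1, 1.27 against the mean and 1.26 with all libraries. Timp2, also near 0, became 0.00560, 0.00562 and 0.00361 under the first 3 of these and 0.0615 against control line 2, and Mmp14 0.0180 against control line 1. In culture DESeq2 called 13 genes higher and 31 lower and edgeR without a filter 42 and 53, each with 2 members higher. Without a filter, members lower were 2 for knockout tumors over purified cells and 2 for purified over cultured cells. The interaction of Timp2 became 0.00159 with DESeq2 size factors and 0.00166 by DESeq2.

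Same-numbered libraries did not pair, with correlations of their deviations from -0.209 to 0.323 in tumors and 0.00996, -0.023 and -0.151 in purified cells, so they share only a number. With a replicate block, purified cells had 156 genes higher and 147 lower, members lower in tumors over purified cells were 2 in the knockout line and 1 in control line 1, and Mmp9 in the knockout line became -0.11. Between the control lines the block gave 772 higher and 1051 lower genes, and a crossed pairing chosen after seeing the data gave 824 and 1072 against 840 and 1124 without a block.

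Leaving out 1 library at a time, purified cells had 41 to 262 genes higher, 31 to 278 lower and 0 to 2 members lower, with the lowest gene counts without the second knockout library. Mmp3 ranged from -0.38 to 0.57, Mmp14 from -0.0694 to 0.0258 and Timp2 from -0.0236 to 0.0414. Between the control lines there were 290 to 1001 genes higher and 501 to 1214 lower, the lowest without the first library of control line 1, with Mmp10 from -0.45 to 1.02 and Mmp14 from -0.0680 to 0.20. In knockout tumors over purified cells, 3 to 5 members were higher and 1 to 2 lower, with Mmp9 from -0.20 to 0.66 and Mmp10 from -0.12 to 0.33. In control line 1, 0 to 3 members were lower. In purified over cultured cells Mmp13 ranged from -1.12 to 0.56. For the interaction, 230 to 782 genes were higher and 316 to 923 lower, the lowest without the second purified knockout library, with Mmp14 from -0.0269 to 0.24, Timp1 from -0.0366 to 0.20 and Timp2 from -0.0648 to 0.0230. The causes were not tested. Purified groups of 2 and cultures of 1 library limit what can be called. Mmp8 rests on few counts in purified and cultured cells, and Mmp10 in purified cells and cultured control cells. Timp3 does so in purified control cells and in all cultures. In culture Mmp9 had at most 2, Mmp2 at most 11 and Mmp3 at most 35 counts per library.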
